A study of Mus musculus with 6 samples.

Results

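Hip1, Olfm1, Emp1 and Aes are 4 genes of 22098 in the deposited table that were far higher in BCR-ABL-transformed pro-B cells with either of 2 Ikaros finger mutations than in the same kind of cells with intact Ikaros. They were picked by symbol because of that difference, so their levels against wild type are given here as a description, with no test. In the table they have 5 transcript rows, of which Olfm1 has 2. The cells are mouse pro-B acute lymphoblastic leukaemia cells from C57BL/6 bone marrow. Whole marrow suspensions were transduced at day 0 with a retrovirus carrying the p185 form of the BCR-ABL kinase and a YFP reporter, and were then kept in culture. The ZnF4 mutant (Ikaros_ZnF4-/-) lacks zinc finger 4 of the DNA-binding domain of Ikaros, the ZnF1 mutant (Ikaros_ZnF1-/-) lacks zinc finger 1, and the reference is wild type (wt), and all 3 carry BCR-ABL. Each genotype has 1 poly(A) RNA library at day 28 and 1 at day 21 of culture, so n = 2 per genotype. The labels do not say whether the 2 days are separate cultures, so what belongs to a culture and what belongs to its genotype cannot be told apart.

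Ikaros (Ikzf1) is a transcription factor of lymphocyte development that both represses and activates genes, and its loss is a known feature of BCR-ABL leukaemia. It binds DNA through a row of zinc fingers around the core letters GGGAA. The 4 genes belong to unrelated families. Hip1 encodes a clathrin adaptor that links the coat of endocytic vesicles to membrane lipids and actin. Olfm1 (noelin) encodes a secreted olfactomedin-domain glycoprotein known from the nervous system, and Emp1 encodes a tetraspan membrane protein of the PMP22 family. Aes (also named Tle5) encodes a short Groucho protein, which has the tetramerisation domain of the Groucho co-repressors but lacks their WD40 repeats and so can modulate them.

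Values are RPKM, in which reads are scaled to transcript length and to the size of the library, so levels can be set side by side between genes. Between 10401 and 11233 symbols reached 1 RPKM in a library, and the read depth behind a value is unknown. Differences are on the log2(RPKM + 1) scale unless said otherwise, which understates the change of genes near 0. Tests come from limma with genotype and day as terms, over 11379 genes in the 6 libraries. "Called" means that p, adjusted by Benjamini-Hochberg over all genes tested, was below 0.05. Ikzf1 itself stood at 165.9 and 186 RPKM in the ZnF4 mutant, 91.4 and 108 RPKM in the ZnF1 mutant, and 78.7 and 89.2 RPKM in wild type, with day 28 before day 21 for each. Its row covers the whole transcript and says nothing about the loss of 1 finger. The summed RPKM of the 12 B-lineage markers, led by Vpreb3 and Igll1, lay between 3732.2 and 4085.4 in every library, with all 12 measured. Single markers did differ. Against wild type 1 was called higher and 2 lower in the ZnF4 mutant (10.9% and 7.32% of all genes). In the ZnF1 mutant 1 was called higher and 1 lower (22.9% and 15.2%). Between the mutants 1 was called higher and 3 lower in the ZnF4 mutant (22.3% and 23.2%).

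The sequences around the transcription starts of 3 of the 4 genes are in the RefSeq promoter table (GRCm38.p6), and Aes is named only. They are shown because the genes were chosen for high levels in cells with altered Ikaros, and they carry or lack the letters that Ikaros binds. Binding of Ikaros to them was not tested. Each window holds 250 bases before and 50 bases after a start and is printed 5′ to 3′ on the strand of the gene. The capitals mark GGGAA or its reverse complement TTCCC. These coordinates belong to GRCm38.p6, whereas the RPKM values were made on mm9.
Hip1, chr5:135545073-135545372, minus strand: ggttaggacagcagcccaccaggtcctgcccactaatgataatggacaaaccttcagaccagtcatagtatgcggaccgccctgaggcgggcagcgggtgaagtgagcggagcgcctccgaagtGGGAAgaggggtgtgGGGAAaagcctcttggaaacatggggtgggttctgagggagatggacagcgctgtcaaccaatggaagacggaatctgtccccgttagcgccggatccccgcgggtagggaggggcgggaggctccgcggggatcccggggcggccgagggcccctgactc
Olfm1, start of the 2692-base row, chr2:28192843-28193142, plus strand: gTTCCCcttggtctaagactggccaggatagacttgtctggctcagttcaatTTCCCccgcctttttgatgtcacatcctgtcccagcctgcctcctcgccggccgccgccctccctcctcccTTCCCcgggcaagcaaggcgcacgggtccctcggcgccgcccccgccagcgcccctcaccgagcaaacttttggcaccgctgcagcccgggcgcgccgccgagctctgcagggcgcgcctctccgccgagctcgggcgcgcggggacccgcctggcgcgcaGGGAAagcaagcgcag
Olfm1, start of the 1052-base row, chr2:28205439-28205738, plus strand: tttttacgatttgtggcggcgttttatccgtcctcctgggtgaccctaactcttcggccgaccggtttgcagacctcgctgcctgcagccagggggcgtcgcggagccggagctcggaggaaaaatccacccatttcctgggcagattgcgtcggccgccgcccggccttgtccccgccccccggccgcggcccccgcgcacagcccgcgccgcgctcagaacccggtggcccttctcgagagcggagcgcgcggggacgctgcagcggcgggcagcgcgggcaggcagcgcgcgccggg
Emp1, chr6:135362681-135362980, plus strand: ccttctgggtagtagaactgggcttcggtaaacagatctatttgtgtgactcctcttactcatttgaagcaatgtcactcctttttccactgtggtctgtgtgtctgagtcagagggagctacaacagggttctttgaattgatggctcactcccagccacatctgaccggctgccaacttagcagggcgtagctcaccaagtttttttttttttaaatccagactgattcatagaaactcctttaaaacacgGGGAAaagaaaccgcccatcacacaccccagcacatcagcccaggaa

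GGGAA, read on both strands, occurs 2 times in the Hip1 window, 4 times in the window of the longer Olfm1 row, 0 times in that of the shorter row and 1 time in the Emp1 window. The motif is common: 62.7% of all 32851 windows of 300 bases in the table hold it. The longer form TGGGAA is in 25.6% of all windows and, among those printed, in the Hip1 window only. GGGAA contains the letters GGAA that Ets factors bind, so a match does not belong to Ikaros alone. The windows also differ in composition. Both Olfm1 windows are rich in G and C (70.7% for the longer row and 72.3% for the shorter row), the Hip1 window has 64% and the Emp1 window 46.7%, against a median of 52.7% over all windows. The 4 genes lie on 4 different chromosomes (2, 5, 6 and 10).

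Hip1 was the gene with the widest separation of the 4. It had 20.4 and 23.3 RPKM in the ZnF4 mutant at day 28 and day 21, 16.3 and 21.7 RPKM in the ZnF1 mutant, and 1.1 and 1.6 RPKM in wild type. Every mutant library was at least 10.2 times as high as the higher wild type library. The RPKM ratio to wild type of the same day was 18.5 at day 28 and 14.6 at day 21 in the ZnF4 mutant, and 14.8 and 13.6 in the ZnF1 mutant. On the log2 scale the 4 differences lay between 3.04 and 3.35, so the 2 days gave nearly the same value. Its 7886-base row is the longest of the 5. RefSeq places a non-coding gene, Gm52790, over part of Hip1, and with no strand-marking step named, reads of the 2 cannot be told apart.

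Olfm1 was close to absent in wild type. Its 2692-base row had 12.9 and 8.9 RPKM in the ZnF4 mutant at day 28 and day 21, 7 and 14.8 RPKM in the ZnF1 mutant, and 0.9 and 0.6 RPKM in wild type. The groups did not overlap, but the mutant libraries varied more than those of the other 3 genes, with the highest at 2.11 times the lowest. In the ZnF1 mutant the later day was the lower one, and in the ZnF4 mutant it was the higher one. The 1052-base row, which starts further downstream, stood at 3.2 and 2.3 RPKM in the ZnF4 mutant, 2.5 and 3.6 RPKM in the ZnF1 mutant, and 0.4 and 0.2 RPKM in wild type, in the same order of days. Both rows thus showed the same order of libraries within each mutant. The longer row was 4.03 and 3.87 times the shorter one in the ZnF4 mutant, 2.8 and 4.11 times in the ZnF1 mutant, and 2.25 and 3 times in wild type. The rows are alternative transcripts of 1 gene, reads from exons they share were divided in a way not stated in the labels, and the wild type ratios rest on values rounded to 0.1.

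Emp1 was present in wild type and several times higher in the mutants. It had 54.5 and 47.1 RPKM in the ZnF4 mutant at day 28 and day 21, 36.3 and 36.7 RPKM in the ZnF1 mutant, and 5.8 and 8.7 RPKM in wild type. The ZnF4 libraries were the highest on both days, and the 2 ZnF1 libraries were almost equal. The ratio to wild type of the same day was 9.4 at day 28 and 5.41 at day 21 in the ZnF4 mutant, and 6.26 and 4.22 in the ZnF1 mutant.

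Aes had the highest levels of the 4 and the least even wild type values. It had 66.4 and 72.7 RPKM in the ZnF4 mutant at day 28 and day 21, 89.6 and 88.3 RPKM in the ZnF1 mutant, and 7 and 22.1 RPKM in wild type. The mutant libraries were within 1.35 times of each other, whereas the wild type library of day 21 was 3.16 times that of day 28. The size of the difference therefore depends on the day. The ratio to wild type was 9.49 at day 28 and 3.29 at day 21 in the ZnF4 mutant, and 12.8 and 4 in the ZnF1 mutant.

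**Figure D1:**
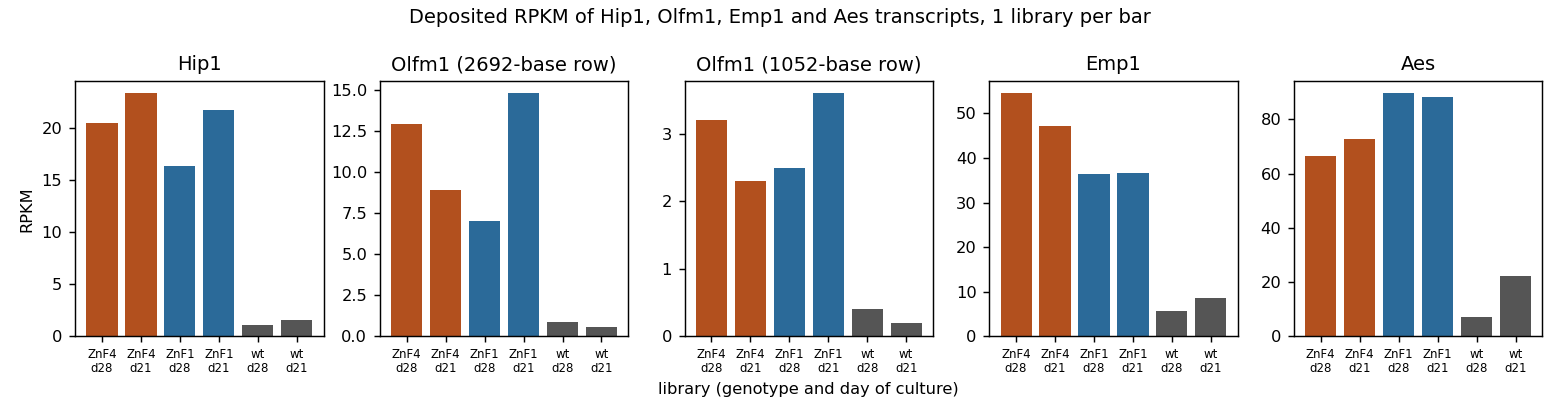
RPKM of the 5 transcript rows of the 4 genes (y axis, from 0, its own scale in each panel) in the 6 libraries (x axis), 1 bar per library. In every panel the 4 mutant bars stand above both wild type bars, and the Aes panel shows the wild type library of day 21 at 22.1 RPKM beside 7 RPKM at day 28.

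In order of level within a library, Aes was first and Emp1 was second in all 6 libraries. Hip1 followed and Olfm1 was last. Hip1 and Olfm1 lay above 49.7% to 55.6% of all symbols in the wild type libraries, a range that covers both genes, and Hip1 lay above 79.3% to 85.3% of them in the mutant libraries. Aes lay above 95.8% to 97.7% of symbols in the mutant libraries, against 68.3% and 84.8% in wild type at day 28 and day 21. Aes was thus among the more abundant transcripts of the mutant cells.

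The separation was set beside that of all genes tested by taking the lowest mutant library minus the highest wild type library. This gap was 2.73 for Hip1, 2.07 for Olfm1, 1.94 for Emp1 and 1.54 for Aes. It was above 0 for 1542 of 11379 genes, or 13.6%, and at least 1 for 77 genes. In the other direction, every mutant library was below both wild type libraries for 8.81% of genes. Ranked by it, Hip1 was 3rd, Olfm1 5th, Emp1 7th and Aes 23rd. As these values chose the genes, the ranks only say where they stand. The genes next to them in rank share the size of the gap and not always the rest of the pattern. Just above Hip1 was Col6a6, a collagen VI chain (gap 2.76), and just below it was Ccnd1, which encodes cyclin D1 (2.28). Around Olfm1 and Emp1 stood Igf2, insulin-like growth factor 2 (2.02), and Serpinh1, a collagen chaperone (1.92). Igf2 was at 175.2 and 247.2 RPKM in the ZnF4 mutant at day 28 and day 21, at 5.9 and 6.1 RPKM in the ZnF1 mutant, and at 0.2 and 0.7 RPKM in wild type. Serpinh1 was at 58.8 and 25.6 RPKM in the ZnF4 mutant, at 15.6 and 16.3 RPKM in the ZnF1 mutant, and at 2.1 and 3.4 RPKM in wild type. In both genes the ZnF4 libraries were all above the ZnF1 ones. Aes stood between Lysmd2 (1.56) and Stc1, the secreted hormone stanniocalcin 1 (1.54), and both wild type libraries list Stc1 at 0. Of the 23 genes with a gap at least as wide as that of Aes, 18 had 5 RPKM or more in every mutant library.

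**Figure D2:**
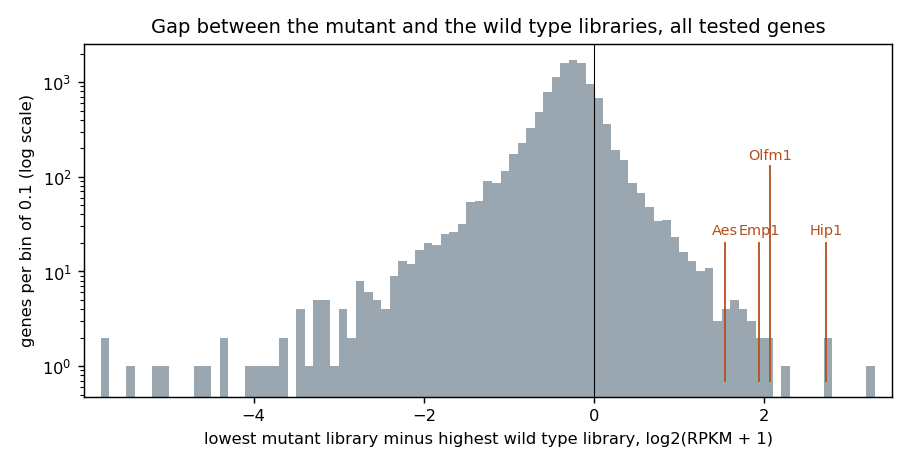
Distribution over the 11379 tested genes of the lowest mutant library minus the highest wild type library on the log2(RPKM + 1) scale (x axis), with the number of genes per bin on a log y axis. Lines mark Aes (1.54), Emp1 (1.94), Olfm1 (2.07) and Hip1 (2.73), which lie in the right tail, among the 23 genes at or above Aes.

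The difference between the 2 mutants was not itself used to choose the genes and was tested. The genes were nonetheless chosen for high levels in both mutants, so nothing is read from their count here. By limma, 0 of the 4 genes were called between the ZnF4 and the ZnF1 mutant, and 1 had an unadjusted p below 0.05, whereas 45.5% of all tested genes were called, 22.3% as higher and 23.2% as lower in the ZnF4 mutant. Emp1 was nearest, with a ZnF4 minus ZnF1 difference of 0.46 ± 0.17 (SE; 95% confidence interval 0.02 to 0.9; limma adjusted p = 0.0819), and was higher in the ZnF4 mutant on both days. Without the wild type library of either day, which gives a different estimate of the spread, Emp1 was called (adjusted p = 0.0385 without day 28 and 0.0387 without day 21 of wild type). The differences of the other 3 genes were 0.2 ± 0.09 for Hip1 (interval -0.02 to 0.43, limma adjusted p = 0.121), -0.35 ± 0.38 for Aes (interval -1.31 to 0.61, adjusted p = 0.486) and 0.06 ± 0.36 for Olfm1 (interval -0.84 to 0.96, adjusted p = 0.9). The intervals reach -1.31 for Aes and 0.96 for Olfm1, so similar levels in the 2 mutants are not shown. The Olfm1 value joins a day 28 difference of 0.8 and a day 21 difference of -0.67. Without the ZnF1 library of day 21 it was 0.74 and called (limma adjusted p = 0.0458), and without that of day 28 it was -0.61 (adjusted p = 0.0631). Without the ZnF4 library of day 28 it was -0.37 and without that of day 21 it was 0.49. Without the ZnF1 library of day 28 the Aes difference was 0.07.

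The day of culture, also not used in the choice, made no called difference. By limma 0 of 11379 genes were called between day 28 and day 21, and 1631 genes (14.3%) had an unadjusted p below 0.05. Among the 4 genes this unadjusted limit was passed by Hip1, which was lower at day 28 by -0.29 ± 0.07 (SE; 95% confidence interval -0.48 to -0.11; limma adjusted p = 0.218) and was the lower in 3 of 3 genotypes. The day 28 minus day 21 differences were -0.55 ± 0.31 for Aes (limma adjusted p = 0.467), -0.11 ± 0.14 for Emp1 (0.765) and -0.08 ± 0.29 for Olfm1 (0.918). Most of the Aes value came from wild type, where the day 28 minus day 21 difference was -1.53, against -0.13 in the ZnF4 mutant and 0.02 in the ZnF1 mutant. Whether the effect of the day differed between genotypes was not testable, as each genotype has a single library per day.

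**Figure D3:**
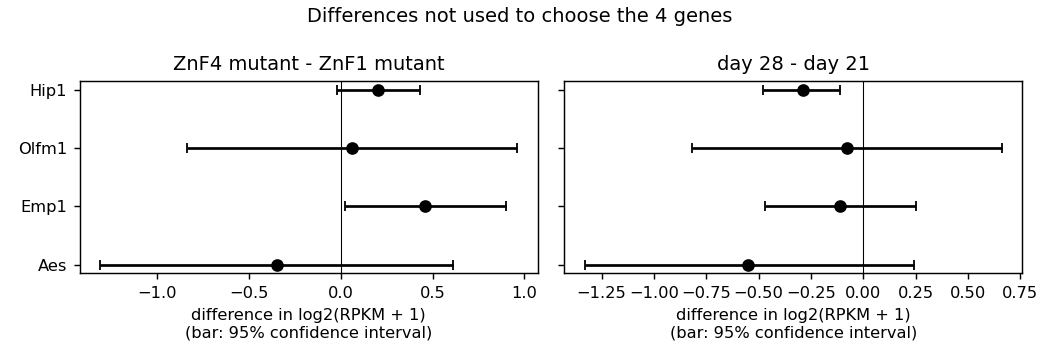
Estimated differences of the 4 genes on the log2(RPKM + 1) scale (x axis) with 95% confidence intervals, for ZnF4 minus ZnF1 mutant (left) and day 28 minus day 21 (right). The interval of Hip1 lies below 0 for the day (-0.48 to -0.11) and that of Emp1 just above 0 for the mutants (0.02 to 0.9), and none of the 8 differences passed after adjustment over all genes.

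Hip1 has 1 close relative, Hip1r, which encodes the Hip1-related clathrin and actin adaptor, and the relative was lower in both mutants. Hip1r had 14.1 and 13.4 RPKM in the ZnF4 mutant at day 28 and day 21, 21.3 and 18.1 RPKM in the ZnF1 mutant, and 34.9 and 32.4 RPKM in wild type. The 3 genotypes did not overlap. Hip1r fell by -1.23 ± 0.07 in the ZnF4 mutant (limma adjusted p = 0.00114) and by -0.75 ± 0.07 in the ZnF1 mutant (adjusted p = 0.00198). Both calls held with any 1 library left out (adjusted p up to 0.0407 and 0.0398). It was also lower in the ZnF4 than in the ZnF1 mutant, by -0.48 ± 0.07 (adjusted p = 0.00534), which did not pass once the ZnF1 library of day 28 was left out (adjusted p = 0.0649). Set beside each other per length, Hip1 made up 59.1% and 63.5% of the summed RPKM of the pair in the ZnF4 mutant, 43.4% and 54.5% of it in the ZnF1 mutant, and 3.06% and 4.71% of it in wild type. These shares rest in part on the values that chose Hip1, so they are a description. The sum of the pair itself was 34.5 and 36.7 RPKM in the ZnF4 mutant, 37.6 and 39.8 RPKM in the ZnF1 mutant, and 36 and 34 RPKM in wild type.

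Among the clathrin coat and endocytic adaptor genes as a list, 27 of 34 were tested besides Hip1. In the ZnF4 mutant 2 rose and 3 fell, against 18.2% of all tested genes called, 10.9% higher and 7.32% lower. In the ZnF1 mutant 7 rose and 2 fell, against 38.1% of all genes, 22.9% higher and 15.2% lower. Under quantile scaling the ZnF1 calls over all genes turned from 2606 higher and 1730 lower to 2047 higher and 2913 lower, with the median of all genes at -0.12 in place of -0.02. So few calls among 27 genes are not read as a difference from all genes. The medians of the list (0 in the ZnF4 mutant and 0.09 in the ZnF1 mutant) were close to those of all genes (0.02 and -0.02). Sh3gl3 (endophilin A3), a membrane-curving protein, was higher by 1.76 ± 0.16 in the ZnF4 mutant by limma. It had 3.5 and 2.1 RPKM there and at most 0.2 RPKM in the other 4 libraries. Genes were tested at 1 RPKM or more in at least 2 libraries, which Sh3gl3 reached only in the ZnF4 mutant. Its call there, 1 of the 2 that rose, is therefore a description. In the ZnF1 mutant the adaptor Dab2 rose by 2.26 ± 0.10, the scaffold Itsn1 (intersectin 1) by 1.74 ± 0.09 and the clathrin light chain Cltb by 0.87 ± 0.09 (adjusted p up to 0.00198). Dab2 fell by -0.56 ± 0.10 in the ZnF4 mutant (adjusted p = 0.0216) and Itsn1 rose by 0.51 ± 0.09 (adjusted p = 0.0215), but neither passed with a library left out, whichever it was (adjusted p up to 0.17 and 0.183), nor with no day term or no filter on low values.

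The relatives of Emp1 were called in 1 of the 2 mutants. Pmp22, Emp3 and Emp2 encode tetraspan proteins of the same family, and all 3 rose in the ZnF1 mutant, by 2.13 ± 0.17, 1.44 ± 0.09 and 1.66 ± 0.15 (limma adjusted p up to 0.00156, and up to 0.0275 with any 1 library left out). Of all genes 22.9% were called higher in this comparison. In the ZnF4 mutant the differences were -0.51 ± 0.17, 0.28 ± 0.09 and 0.2 ± 0.15, and none was called (adjusted p = 0.112, 0.0907 and 0.416), against 18.2% of all genes. The difference between the mutants was called for all 3, at -2.65 ± 0.17, -1.16 ± 0.09 and -1.46 ± 0.15 (adjusted p up to 0.00137), with each lower in the ZnF4 mutant, against 23.2% of all genes called lower. Pmp22 stood at 6.6 and 6.8 RPKM in the ZnF4 mutant, 47.6 and 46.8 RPKM in the ZnF1 mutant, and 7.8 and 12.7 RPKM in wild type. Emp1 was therefore 55.4% and 53.8% of the summed RPKM of the 4 family genes in the ZnF4 mutant, 20.7% and 23.1% of it in the ZnF1 mutant, and 13.6% and 17.2% of it in wild type. These shares rest in part on the values that chose Emp1, so they are a description. The other 3 listed relatives were below 1 RPKM in every library.

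Markers of macrophages and of stromal cells were higher in sum in the ZnF1 mutant than in wild type. The 14 macrophage markers, led by Lyz2 and Cd68, summed to 206.2 to 271.5 RPKM in the ZnF4 mutant, 1844.9 to 1903.6 RPKM in the ZnF1 mutant and 337.1 to 527.9 RPKM in wild type. Of the 13 tested, 12 rose in the ZnF1 mutant, against 22.9% of all genes called higher there. In the ZnF4 mutant 7 fell and 0 rose, against 7.32% of all genes called lower and 10.9% higher. The 14 stromal markers, led by Bgn and Sparc, summed to 26 to 28.8 RPKM in the ZnF4 mutant, 210 to 214.7 RPKM in the ZnF1 mutant and 38 to 53.6 RPKM in wild type. All 12 tested rose in the ZnF1 mutant, and 5 fell in the ZnF4 mutant, beside the same shares of all genes. The higher levels of Pmp22, Emp2, Emp3, Dab2 and Itsn1 in the ZnF1 mutant run in parallel with these sums, and the part of these cells in those levels was not tested. In the ZnF4 libraries, where Hip1, Olfm1, Emp1 and Aes were also above wild type, both sums were below those of either wild type library. The part of other cells in the levels of these 4 genes was not tested. In bulk RNA, fewer cells of a type and less RNA per cell cannot be told apart.

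**Figure D4:**
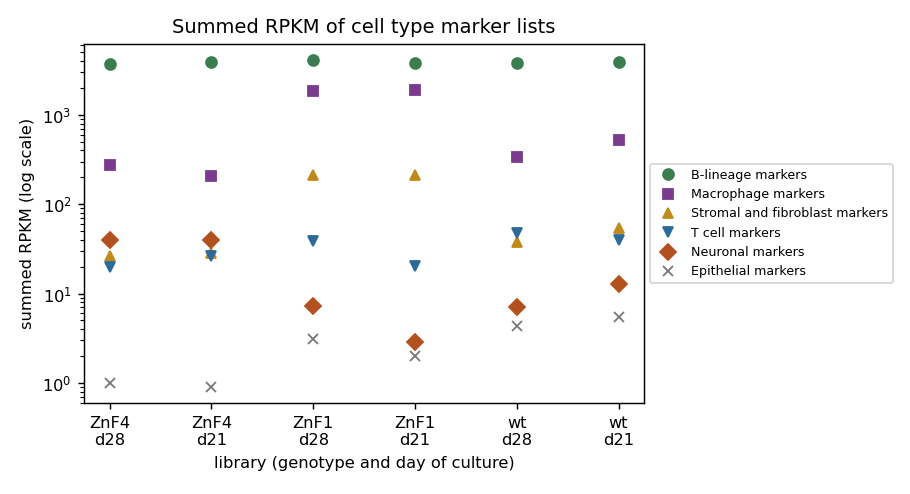
Summed RPKM of 6 cell type marker lists (log y axis) in the 6 libraries (x axis), 1 point per list and library. The B-lineage sum lies between 3732.2 and 4085.4 RPKM throughout, whereas the macrophage sum is 1844.9 to 1903.6 RPKM in the ZnF1 libraries and 206.2 to 271.5 RPKM in the ZnF4 libraries.

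Olfm1 is known from neurons and Emp1 from epithelia, so markers of both were read. Of the 6 measured neuronal markers Snap25, Gap43 and Nefl were listed at 0 in all libraries. The sum of the list was 39.4 and 39.7 RPKM in the ZnF4 mutant at day 28 and day 21, 7.2 and 2.9 RPKM in the ZnF1 mutant, and 7 and 12.9 RPKM in wild type. It was almost entirely Tubb3, a tubulin gene, at 39.4 and 39.7 RPKM in the ZnF4 mutant. The 6 epithelial markers summed to 0.9 to 1 RPKM in the ZnF4 mutant, 2 to 3.1 RPKM in the ZnF1 mutant and 4.3 to 5.4 RPKM in wild type, with the keratins Krt8 and Krt18 listed at 0 throughout. Granulocyte (at most 2.5 RPKM) and erythroid markers (at most 1.3 RPKM) were near 0 in sum. T cell markers summed to 19.8 to 47.3 RPKM, mostly Lck (11.7 to 46.7 RPKM), with Cd3e, Cd3g, Cd8a and Cd8b1 listed at 0. Thy1 was at 3.8 and 9.4 RPKM in the ZnF4 mutant at day 28 and day 21, and at most 3 RPKM elsewhere. Endothelial markers summed to 14.4 to 30.6 RPKM, mostly Pecam1.

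Olfm1 stood alone in its close family, as Olfm2 reached at most 0.3 RPKM and Olfm3 and Olfm4 were listed at 0 in every library. Of the 12 other olfactomedin-domain genes 4 were tested. Olfml3, a secreted relative, stood at 1.1 and 1.2 RPKM in the ZnF4 mutant, 7.5 and 10.6 RPKM in the ZnF1 mutant, and 1.1 and 1.9 RPKM in wild type. It rose by 2.01 ± 0.13 in the ZnF1 mutant (limma adjusted p = 0.00102) and was not called in the ZnF4 mutant (-0.2 ± 0.13, adjusted p = 0.374), as was the case for Pmp22. Lphn1, the adhesion receptor latrophilin 1, rose in both mutants, by 0.69 ± 0.13 in the ZnF4 mutant (adjusted p = 0.0261) and 0.81 ± 0.13 in the ZnF1 mutant (adjusted p = 0.00914). The ZnF4 call did not survive the removal of a library, whichever it was (adjusted p up to 0.165). The ZnF1 call did not survive the removal of a ZnF1 library or of wild type at day 28 (adjusted p up to 0.0872).

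**Figure D5:**
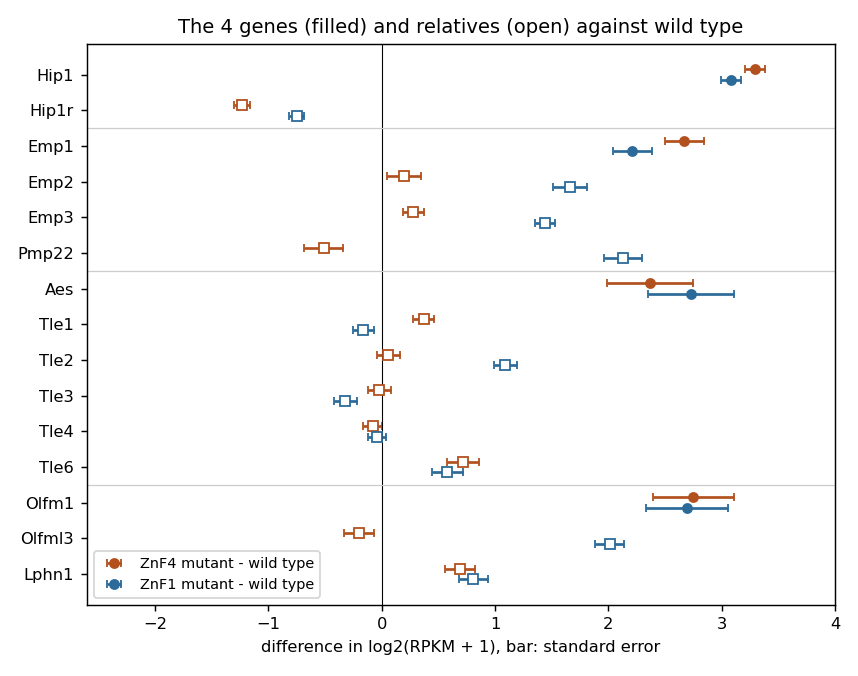
Difference from wild type on the log2(RPKM + 1) scale (x axis) for the 4 genes (filled circles) and their relatives (open squares), in the ZnF4 mutant (upper mark of each pair) and the ZnF1 mutant (lower mark), with standard errors from limma. The 4 genes lie between 2.21 and 3.29 in both mutants, Hip1r lies below 0 in both, and Pmp22, Emp2, Emp3 and Olfml3 lie at 1.44 to 2.13 in the ZnF1 mutant and at -0.51 to 0.28 in the ZnF4 mutant.

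Aes was the most abundant Groucho gene in the mutants, whereas Tle3 was in wild type. This order and the shares below rest in part on the values that chose Aes, so they are a description. The full-length co-repressors Tle3 and Tle4 had 36.1 to 51 RPKM and 14.4 to 17.1 RPKM over the 6 libraries and were not called in either mutant. Their limma differences were -0.02 ± 0.10 and -0.08 ± 0.08 in the ZnF4 mutant, and -0.32 ± 0.10 and -0.04 ± 0.08 in the ZnF1 mutant. The ZnF1 value of Tle3 (adjusted p = 0.0556) passed on removal of either ZnF4 library (adjusted p = 0.0331 without day 28 and 0.0332 without day 21). Aes made up 48.2% and 54.1% of the summed RPKM of the 6 Groucho genes in the ZnF4 mutant at day 28 and day 21, 61.6% and 60.3% of it in the ZnF1 mutant, and 9.62% and 25.3% in wild type. The sum of the 5 Tle genes was 71.3 and 61.7 RPKM in the ZnF4 mutant, 55.8 and 58.2 RPKM in the ZnF1 mutant, and 65.8 and 65.3 RPKM in wild type. Tle2 and Tle6, which lie next to Aes on chromosome 10, were low. Tle2 had 1.4 and 1.3 RPKM in the ZnF1 mutant and at most 0.2 RPKM elsewhere, a ZnF1 difference of 1.09 ± 0.10. The filter asked for 1 RPKM in at least 2 libraries, which Tle2 met only through the ZnF1 mutant, so its call there is a description. Tle6 reached at most 1.4 RPKM. With 0.3 RPKM in wild type it met the filter only through mutant libraries, so its calls are a description too. It was called higher in the ZnF4 mutant (0.72 ± 0.14, adjusted p = 0.024) and in the ZnF1 mutant (0.58 ± 0.14, adjusted p = 0.0248). The ZnF4 call failed on removal of any ZnF4 or wild type library or of the ZnF1 one of day 28 (adjusted p up to 0.191). The ZnF1 call failed on removal of any ZnF1 or wild type library, with adjusted p up to 0.167, and under quantile scaling. With no filter on low values neither passed. Tle1 (0.37 ± 0.09) was called in the ZnF4 mutant at adjusted p = 0.0461, which no longer passed on removal of a library, whichever it was (adjusted p up to 0.269).

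Groucho proteins do not bind DNA and are brought to it by other factors, of which 12 of 23 listed were tested. In the ZnF4 mutant 4 rose and 0 fell, against 10.9% of all tested genes called higher. In the ZnF1 mutant 5 rose and 0 fell, against 22.9% of all genes called higher. The genes called higher in both mutants were Tcf7l1, Tcf7 and Tcf7l2, which encode TCF factors of the Wnt pathway, and Hhex. The lowest mutant minus the highest wild type library was 1.631 for Tcf7l1, 0.954 for Tcf7, 0.114 for Hhex and 0.07 for Tcf7l2. For Hhex only the calls of the main fit are given. Tcf7l1 (TCF3) had 11.7 and 15.3 RPKM in the ZnF4 mutant at day 28 and day 21, 12.2 and 17.5 RPKM in the ZnF1 mutant, and 2 and 3.1 RPKM in wild type. Its mutant libraries were all above the wild type ones. Tcf7l1 rose by 2.04 ± 0.08 in the ZnF4 mutant (adjusted p = 0.000537) and by 2.16 ± 0.08 in the ZnF1 mutant (adjusted p = 0.001), and both calls held with any 1 library left out (adjusted p up to 0.0396 and 0.0219). Tcf7 (TCF1) rose by 1.11 ± 0.15 (adjusted p = 0.00959) and 1.18 ± 0.15 (adjusted p = 0.00416). The ZnF1 call failed on removal of a wild type library, with adjusted p up to 0.0663, and the ZnF4 call failed then too and on removal of ZnF4 at day 28 (up to 0.122). Tcf7l2 rose by 0.97 ± 0.10 in the ZnF4 mutant, which failed on removal of a wild type library or of ZnF4 at day 28 (adjusted p up to 0.0812). In the ZnF1 mutant it rose by 0.44 ± 0.10, which failed on removal of any wild type or ZnF1 library (adjusted p up to 0.2) and under quantile scaling. Prdm1 (Blimp-1), a transcriptional repressor that drives plasma cell differentiation, differed from wild type by 0.81 ± 0.12 in the ZnF1 mutant. It was not called in the ZnF4 mutant (-0.37 ± 0.12, limma adjusted p = 0.109). Its ZnF4 minus ZnF1 difference was -1.17 ± 0.12. Prdm1 had 1.9 and 1.7 RPKM in the ZnF1 mutant and at most 0.6 RPKM elsewhere, so it met the filter on low values only through the ZnF1 mutant. Its ZnF1 call, 1 of the 5 that rose, and its call between the mutants are therefore a description. Its ZnF1 call failed on removal of a ZnF1 library or of wild type at day 28 (adjusted p up to 0.071) and under quantile scaling.

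The genes beside the 4 on the chromosome were taken from the gene order of GRCm38.p6. On each side the 2 nearest protein-coding genes with a row in the table were read, a choice made after values were seen. Of 8 neighbours tested, 1 was called in the ZnF4 mutant (12.5%, against 18.2% of all genes) and 3 in the ZnF1 mutant (37.5%, against 38.1%). The called ones were Col5a1, Tle2 and Tle6. Each reached 1 RPKM only in mutant libraries and was tested through these, so the counts are a description. Next to Hip1, Pom121 and Nsun5 were not called in either mutant (limma differences of 0.27 and 0.22 in the ZnF4 mutant, and -0.25 and -0.19 in the ZnF1 mutant), and Ccl26 and Ccl24 had at most 0.1 RPKM. All 4 neighbours of Emp1 had at most 0.1 RPKM. Beside Olfm1, the collagen gene Col5a1 had 3 and 2.9 RPKM in the ZnF1 mutant, a difference of 1.27, and at most 0.8 RPKM elsewhere. It was not called in the ZnF4 mutant (-0.34, limma adjusted p = 0.12), and the mitochondrial ribosome gene Mrps2 was not called in either. The other 2 there had at most 0.3 RPKM. Beside Aes, the G protein genes Gna11 and Gna15 had differences of 0.25 and 0.14 in the ZnF4 mutant and 0.26 and 0.19 in the ZnF1 mutant and were not called. The low Tle2 and Tle6, given above, are the next genes there.

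Genes whose profile over the 6 libraries was most like that of each gene were found by Pearson correlation of log2(RPKM + 1). With 6 libraries in 3 genotypes, a step between wild type and the mutants already gives a high coefficient, and between 108 and 201 genes were above 0.95 for each of the 4. Most like Hip1 were Tmem144 (0.9978), Asb2, a ubiquitin ligase subunit (0.9977), and Col6a6 (0.9968). Asb2 stood at 10.1 and 13.1 RPKM in the ZnF4 mutant, 9.4 and 10.9 RPKM in the ZnF1 mutant, and 1.5 and 1.8 RPKM in wild type. Most like Emp1 were Cox19 (0.9979), Lysmd2 (0.996) and Rxra, the retinoid X receptor alpha (0.9955). Cox19, a mitochondrial copper chaperone, kept the shape at a far smaller size, with 20 to 20.6 RPKM in the mutant libraries and 17 to 17.4 RPKM in wild type. Most like Olfm1 were the small GTPase gene Arl3 (0.9967), Foxj2 (0.995) and the leukocyte tetraspanin Cd53 (0.9919). Arl3 and Foxj2 share its lowest mutant value in the ZnF1 library of day 28, whereas Cd53 had 63.7 RPKM there and 63.5 RPKM in the ZnF4 library of day 21. Most like Aes were Lphn1 (0.9953), Decr2 (0.9947) and Agpat3 (0.9945), which share its lower wild type value at day 28.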

How the data were processed

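Poly(A) RNA of 6 libraries was read from 1 deposited table of 26531 transcript rows, with a transcript length for each. The authors deposited RPKM values, rounded to 0.1, 1 column per library, per the file headers. TopHat, bedtools and mm9 are named in the submitters' processing notes, with no versions. Neither the labels nor the headers state the annotation release, read numbers or strand handling. A row that is no transcript (1 row) was left out. In transcripts under 160 bases, low values showed no single-read steps (42.7% to 57.8% fell on steps at the best depth tried, 40.0% to 50.8% by chance), so depth is unknown and no counting interval is given.

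The row with the highest mean stood for a symbol (3305 symbols have several). A pseudocount of 1 was added before taking log2, and genes with at least 1 RPKM in at least 2 libraries were tested. Genotype and day were fitted with limma 3.58.1 under R 4.3.3, moderated by empirical Bayes with a mean-variance trend, with 2 residual and 3.22 prior degrees of freedom. With the day as a term, the p-values rest only on how far the change between days differed between genotypes. Whether this holds any spread between cultures is not known from the labels. The replicate number is the day, which the labels give, and it served as the block. Changes with the day correlated across genes between genotypes at 0.226 to 0.433, with genes not independent. No library was a copy of another (at most 5.61% of genes with identical values). The fit was checked on simulated data with independent noise and no spread between cultures, so the check does not bear on such spread.

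The 4 genes and all lists were chosen with earlier results of these data known. Named were the 4 genes, their close relatives, up to 3 called genes with the smallest p per other list and mutant, the 3 genes most alike in profile, the neighbours in the gap ranking, Ikzf1 and the leading markers. Other genes were chosen after their values were seen. Promoter windows come from RefSeq (GRCm38.p6), matched for 3 of 4 genes through the deposited transcript IDs.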

Additional observations from a re-analysis of the deposited data

Results flagged for a closer look

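With 2 libraries per genotype no single library could be tested as standing apart. Opposite directions between days or genotypes were looked for, and none of these differences was tested. The ZnF4 minus ZnF1 difference of Olfm1 was 0.8 at day 28 and -0.67 at day 21. The day 28 minus day 21 difference of Olfm1 was 0.49 in the ZnF4 mutant, -0.98 in the ZnF1 mutant and 0.25 in wild type. That of Emp1 was 0.21 in the ZnF4 mutant, -0.02 in the ZnF1 mutant and -0.51 in wild type. For Aes it was -0.13 in the ZnF4 mutant, 0.02 in the ZnF1 mutant and -1.53 in wild type.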

How the results depend on the processing

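The differences of the 4 genes from wild type, whose sign is fixed by the choice of the genes, lay between 1.64 (Aes, ZnF4 mutant, 1 library left out) and 3.94 (Hip1, ZnF4 mutant, pseudocount of 0.1). Without the replicate block 1687 genes were called for ZnF4 against wild type, 3653 for ZnF1 against wild type and 4632 for ZnF4 against ZnF1, beside 2076, 4336 and 5177 with it. With no filter on low values the ZnF4 count against wild type was 1137. With 1 library left out the counts ran from 346 to 1230 for ZnF4 against wild type, from 1398 to 4475 for ZnF1 against wild type and from 2526 to 3896 between the mutants, and stayed at 0 for the day. Between the mutants, quantile scaling gave 3431 higher and 2359 lower calls, against 2540 and 2637 as deposited, with the median of all genes at 0.12 in place of 0.03. Leaving out 1 library turned the sign of these uncalled differences, whose ranges follow. Between the mutants they were -0.61 to 0.74 for Olfm1 (called at 0.74), -0.78 to 0.07 for Aes, -0.12 to 0.04 for Tle4, -0.06 to 0.32 for Tle6, -0.26 to 0.02 for Lphn1 and -0.30 to 0.15 for Tcf7. Against wild type they were -0.00 to 0.40 for Emp2 and -0.16 to 0.13 for Tle3 in the ZnF4 mutant, and -0.11 to 0.03 for Tle4 and -0.10 to 0.23 for Sh3gl3 in the ZnF1 mutant. For the day they were -0.37 to 0.37 for Olfm1 and -0.26 to 0.10 for Emp1. Quantile scaling also turned the sign for Sh3gl3 in the ZnF1 mutant (-0.15) and, between the mutants, for Lphn1 (0.12) and Tcf7 (0.09), and it added calls for Tle1 in the ZnF1 mutant (-0.54) and for Tle6 between the mutants (0.61). Between the mutants Tle3 was called without the ZnF4 library of day 21 (0.45). The cause was not tested. As the depth is unknown, differences near the rounding step of 0.1 RPKM cannot be read.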
